A study of Mus musculus with 5 samples.

Results

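Interferon-stimulated genes are the transcripts that a cell makes when an interferon binds its receptor. Their levels were examined in mouse haematopoietic stem cells of 2 genotypes. A fixed list of 46 such genes was looked up by gene name among the 33894 named genes of the deposited tables, and 45 were found. The remaining one, Ifi27, stands in the tables under the older symbol Ifi27l1 and is given apart from all counts below. The members were picked by gene name and not by a measured value, but with earlier results of these data known.

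The cells were sorted from the bone marrow of 8-week-old mice as lineage-negative, ScaI+ and C-Kithigh cells without surface CD34 or Flt3, and RNA from 6K cells per library was sequenced in bulk after Smart-seq2 amplification. The design holds 2 wild type (WT) libraries and 3 libraries from mice with floxed Lrp5 and Lrp6 alleles (Lrp5 fl/fl and Lrp6 fl/fl) and Vav-cre, named Lrp5/6 dKO. Vav-cre is a Cre recombinase driven by Vav sequences in blood cells, and Lrp5 and Lrp6 are Wnt co-receptors. The labels name Cre in the dKO group only, so the transgene and the deletion cannot be told apart, and separate mice are not stated for the libraries. The p-values therefore measure the spread between these libraries, which may in part be technical.

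Type I interferons signal through the receptor chains Ifnar1 and Ifnar2, and interferon gamma through Ifngr1 and Ifngr2. Janus kinases at these receptors activate transcription factors. A complex that holds Stat2 and Irf9 binds the interferon-stimulated response element (ISRE), and the response to interferon gamma acts through the gamma-activated site (GAS). Interferons are known to drive resting haematopoietic stem cells into division, and stem cells are known to hold a set of interferon-stimulated transcripts without infection. ScaI, one of the surface proteins used for the sort, is itself encoded by an interferon-inducible gene, Ly6a.

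The regulatory letters that link these genes were read from RefSeq promoter windows (GRCm38.p6, 250 bases before and 50 after each gene's start). Windows were found by symbol for 35 of the 45 members. The ISRE was searched as GAAANNGAAA on both strands and the GAS as TTCNNNGAA, which reads the same on both strands. The motifs can share bases with each other. The ISRE letters stood in the windows of 18 of the 35 members (51.4%) and in 3.99% of the 27025 genes with a window. The GAS letters stood in 11 of 35 members (31.4%) and in 9.55% of all genes. All 6 guanylate-binding protein and immunity-related GTPase genes with a window held an ISRE match, against 1 of 6 for the transcription factors and their partners. The stretches below show how the matches are arranged in some of the members with a match, chosen by hand. Samd9l, Iigp1 and Dhx58, which are described below, are not among them. Capitals mark the ISRE letters, or, for Irf1 alone, the GAS letters, and each stretch is given 5′ to 3′ on the strand of its gene.

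Isg15: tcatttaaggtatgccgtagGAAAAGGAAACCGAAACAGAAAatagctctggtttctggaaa
Ifit1: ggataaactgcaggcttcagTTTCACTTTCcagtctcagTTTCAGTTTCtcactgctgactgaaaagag
Ifit3: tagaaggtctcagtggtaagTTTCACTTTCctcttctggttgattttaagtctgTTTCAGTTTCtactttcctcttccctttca
Oas3: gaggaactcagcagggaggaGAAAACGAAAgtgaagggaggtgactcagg
Stat2: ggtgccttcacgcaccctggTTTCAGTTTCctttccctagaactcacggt
Gbp7: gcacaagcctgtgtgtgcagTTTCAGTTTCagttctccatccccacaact
Igtp: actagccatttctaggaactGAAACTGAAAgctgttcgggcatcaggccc
Irgm2: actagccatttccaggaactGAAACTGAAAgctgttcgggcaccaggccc
Cxcl10: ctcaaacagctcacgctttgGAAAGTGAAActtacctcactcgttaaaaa
Irf1: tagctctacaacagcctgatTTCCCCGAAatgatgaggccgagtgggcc

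In GRCm38.p6 these lie at chr4:156200855-156200916 on the minus strand (Isg15), chr19:34640765-34640833 on the plus strand (Ifit1), chr19:34583353-34583436 on the plus strand (Ifit3), chr5:120777705-120777754 on the minus strand (Oas3), chr10:128270256-128270305 on the plus strand (Stat2), chr3:142530263-142530312 on the plus strand (Gbp7), chr11:58199502-58199551 on the plus strand (Igtp), chr11:58214893-58214942 on the plus strand (Irgm2), chr5:92349073-92349122 on the minus strand (Cxcl10) and chr11:53769904-53769952 on the plus strand (Irf1). All lie upstream of the annotated start. Isg15 held 3 overlapping ISRE matches between 78 and 57 bases upstream, and Ifit1 and Ifit3 held 2 each. Igtp and Irgm2 shared 68 of the 70 bases nearest their ISRE match. Over the 220 upstream bases aligned at that match they shared 134 (60.9%). The measurements were made on the older build mm9, so these positions describe the sequences and not the count tables.

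Library totals ranged from 16028512 to 28027458 counts, and a gene with no count had an upper limit of 0.107 to 0.187 CPM (a gene's counts scaled to a common library total), which is 3 counts per library and covers counting error only. Levels in CPM below are scaled by edgeR's TMM factors. 2 libraries stood apart. dKO replicate 2 had the smallest total and the fewest genes detected, 12894 against 14750 to 16098, and its log2 CPM correlated with the other libraries at 0.826 to 0.851 across genes, against 0.883 to 0.925 for all other pairs. WT replicate 2 carried transcripts of granulocyte progenitors (Mpo, Elane, Prtn3, Ctsg and Ms4a3) at 42058 CPM in sum, against 6416 CPM in WT replicate 1 and 11044 to 15716 CPM in the dKO libraries. Stem cell genes (Kit, Procr, Mecom, Hlf) were present in every library. So were transcripts of both genes whose proteins the sort selected against, Cd34 at 761 to 1212 CPM and Flt3 at 238 and 116 CPM in WT and 300 to 360 CPM in dKO. Of the 10 stem cell and sort gate genes, 9 had a higher value in dKO. At an unadjusted p under 0.05 by edgeR's test, 4 were higher, against 4.94% of all genes tested. All dKO libraries lay above both WT libraries in 5, against 13.7% of all genes tested. Neither targeted gene was lower in the dKO libraries. The counts of Lrp6 were 660 and 232 (WT) against 790, 260 and 767 (dKO), and those of Lrp5 were 7 and 32 (WT) against 37, 2 and 71 (dKO). A count over a whole gene does not show a deleted exon, so every direction rests on the labels.

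No interferon-stimulated gene passed the test between the genotypes. Of the 45 members, all of which passed the filter on low counts, 26 had a higher and 19 a lower value in dKO. Their median log2 fold change was 0.14, against 0.04 over all 13696 genes tested. With p-values from the quasi-likelihood test of edgeR, adjusted over all genes by Benjamini-Hochberg, 0 of 45 members were called, as were 0% of all genes tested. The smallest adjusted p of a member was 0.441, for Samd9l. At an unadjusted p under 0.05, 3 members (6.67%) were higher and 0 lower, against 4.94% and 5.19% of all genes. DESeq2 and limma-voom also called 0 members, with 3 and 1 at an unadjusted p under 0.05. Over all genes those tools had 13.0% and 11.8% at that threshold, and DESeq2 called 162 genes higher and 92 lower. Absence of a call does not show equal levels: the 95% interval of the fold change was -0.33 to 0.61 on the log2 scale for Sp100, and -4.60 to 3.16 for Ifit3, with 0 to 205 counts per library. In bulk RNA, fewer cells with a transcript and less of it per cell cannot be told apart.

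**Figure D1:**
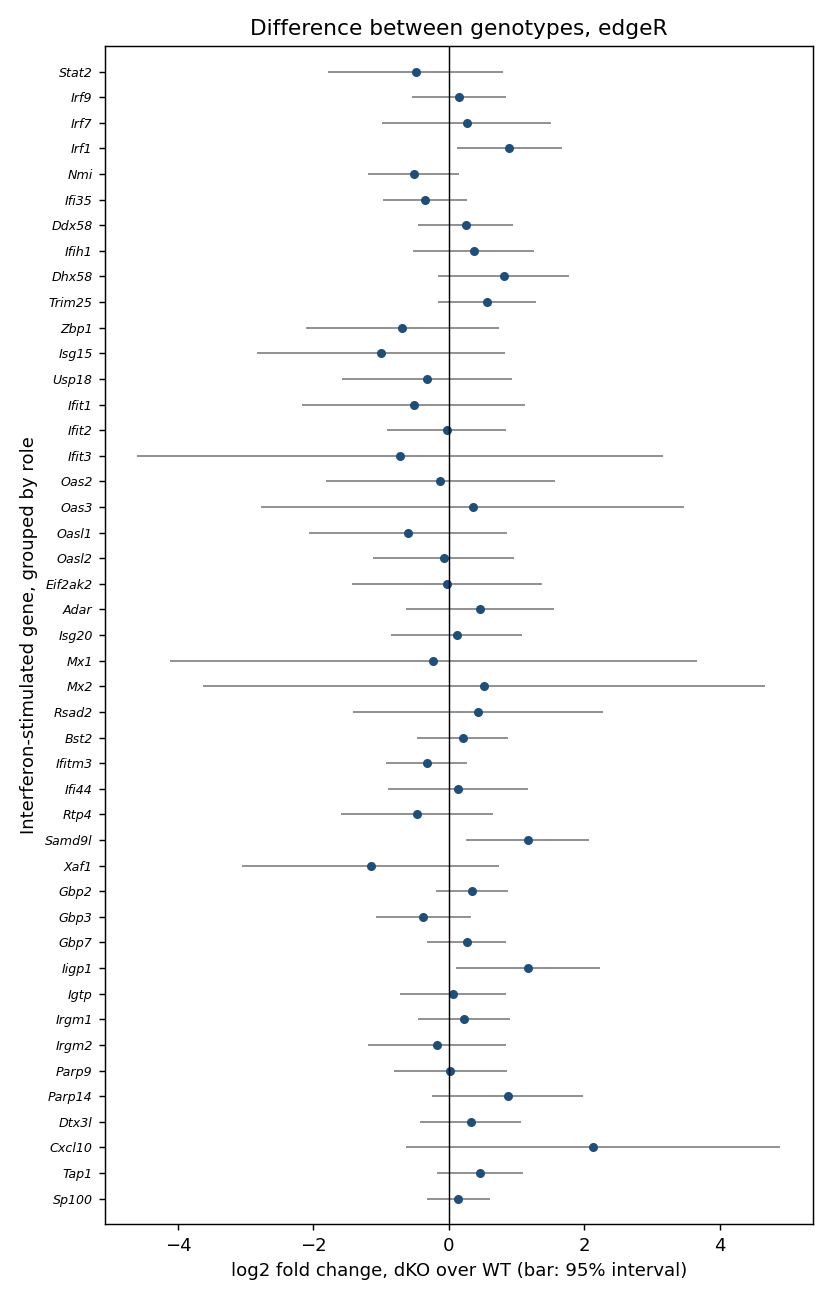
Log2 fold change (dKO over WT, horizontal axis) of each of the 45 interferon-stimulated genes (vertical axis, grouped by role), with edgeR's 95% interval as a bar. The intervals of Samd9l, Irf1 and Iigp1 lie above 0 and those of the other 42 genes include 0.

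The difference between the 2 WT libraries was larger. WT replicate 1 lay above WT replicate 2 in 40 of 45 members, with a median log2 difference of 0.80, against 50.6% of all genes tested and a median of 0.01. The exceptions were Ifit2, Mx1, Gbp3, Cxcl10 and Sp100. The gap was over 2-fold in 15 members (33.3%) and in 13.7% of all genes. In 36 of 45 members (80.0%) it exceeded the fold change between the genotypes, as it did in 50.9% of all genes. WT replicate 2 held the lowest level of 24 members (53.3%), against 22.4% of all genes, and the highest of 1 member, Gbp3. WT replicate 1 held the highest level of 15 members (33.3%), against 14.8% of all genes. The 45 members summed to 3379 CPM in WT replicate 1, 2097 CPM in WT replicate 2 and 2897, 2919 and 3072 CPM in dKO replicates 1, 2 and 3. The dKO libraries thus lay between the WT libraries. These values are a description of 2 libraries, and the granulocyte transcripts given above were highest in the library with the lowest sum. The 10 stem cell and sort gate genes also had their lowest sum there, 2086 CPM against 3175 to 3633 CPM elsewhere. The part of these transcripts in the result was not tested.

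**Figure D2:**
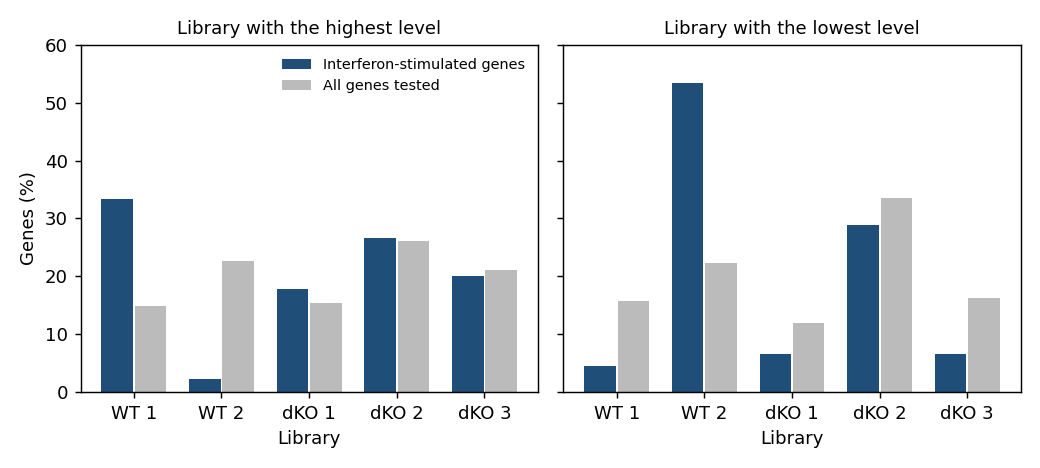
Share of genes (vertical axis, %) whose highest level (left panel) or lowest level (right panel) fell in each library (horizontal axis), for the 45 interferon-stimulated genes (blue) and all 13696 genes tested (grey). WT replicate 2 held the lowest level of 53.3% of the interferon-stimulated genes and of 22.4% of all genes.

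The sign of the fold change differed for 20 of the 45 members according to which WT library was left out, and was the same for 25. Neither this count nor that of kept signs below was made over all genes tested. Without WT replicate 1, 35 members were higher and 10 lower in dKO, with a median log2 fold change of 0.61 against 0.16 for all genes tested in that fit. Without WT replicate 2, 15 were higher and 30 lower, with a median of -0.11 against 0.07. 0 members were called in either fit by edgeR's test. Of the 45 members, 21 kept their sign in every one of the alternatives run for them, among them Irf1, Samd9l, Iigp1, Dhx58, Parp14 and Cxcl10 on the higher side and Nmi, Ifi35, Isg15 and Xaf1 on the lower side.

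In 7 members every dKO library lay above both WT libraries (15.6%, against 13.7% of all genes tested), and in 2 every dKO library lay below (4.44%, against 15.6% of all genes). The higher ones were Irf1, Dhx58, Samd9l, Iigp1, Parp14, Cxcl10 and Sp100, and the lower ones Nmi and Ifi35. In the authors' TPM values, which are scaled for gene length, 7 members had every dKO library above both WT libraries. These were 5 of the 7 above (Irf1, Dhx58, Samd9l, Iigp1 and Cxcl10) with Bst2 and Gbp2, whose groups overlapped in CPM. Nmi and Ifi35 overlapped in TPM, and 0 members lay wholly below there. The TPM shares over all genes were not computed. In CPM the shares of the members are thus near or under those of all genes.

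**Figure D3:**
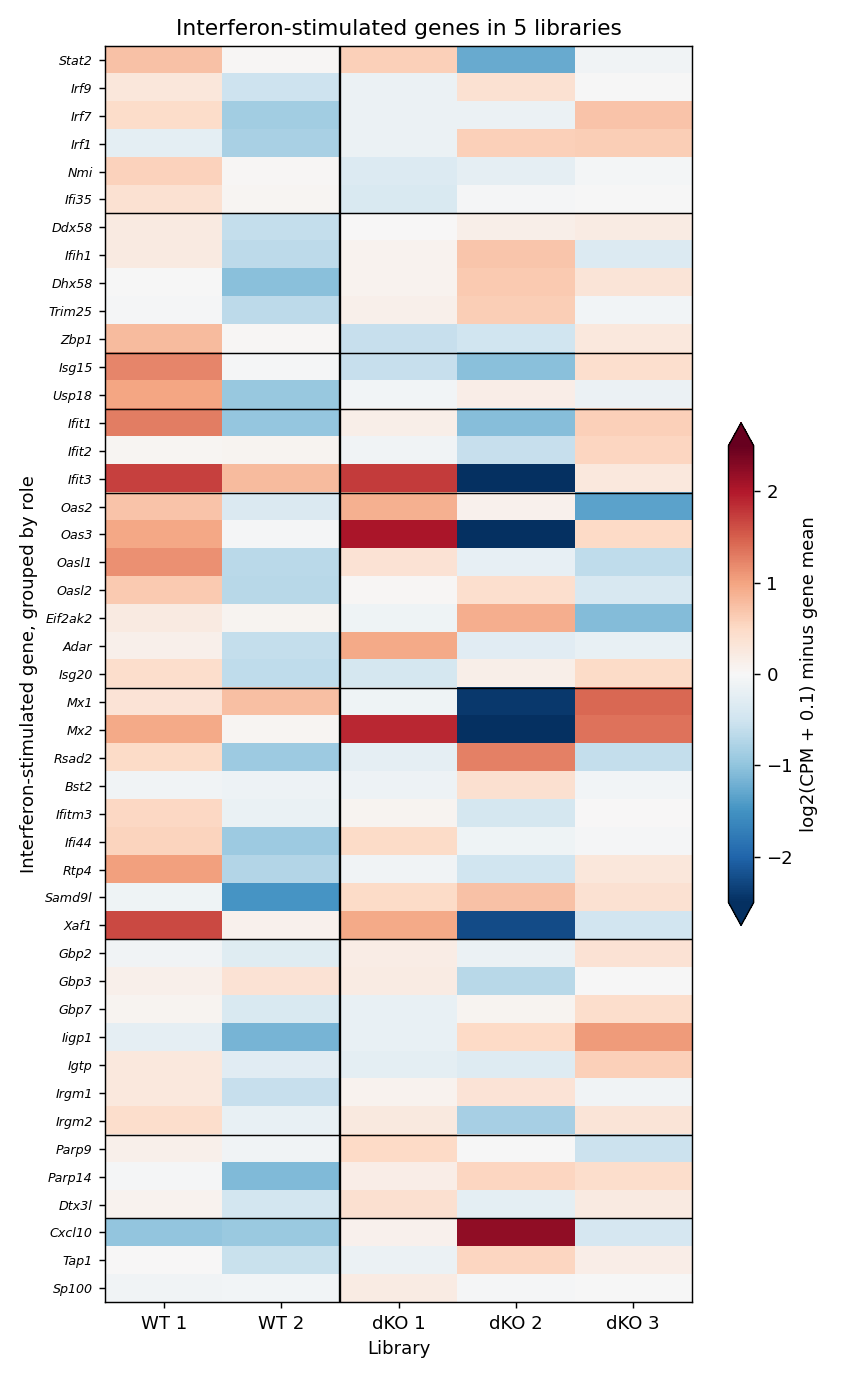
Level of each of the 45 interferon-stimulated genes (rows, separated by role) in each library (columns), as log2(CPM + 0.1) minus the mean of the gene over the 5 libraries. Red is above and blue below that mean, and values beyond 2.5 are drawn at the end of the scale. Blue fills most of the column of WT replicate 2, and the darkest blue cells, those of genes with low counts, stand in dKO replicate 2.

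Stat2, Irf9, Irf7 and Irf1 encode transcription factors of the response, and Nmi and Ifi35 encode a pair of interacting proteins. Irf1, which is induced by interferon gamma through its GAS, measured 64.0 and 43.1 CPM in WT and 67.9, 115 and 115 CPM in dKO replicates 1, 2 and 3. The lowest dKO library lay just above WT replicate 1, and the other 2 lay well above it. The log2 fold change was 0.89 ± 0.33 (SE; unadjusted p = 0.0286, adjusted p = 0.452 by edgeR's test), and it was 0.63 to 1.2 when each library was left out in turn. Adjusted p over the alternatives ran from 0.188 with DESeq2 to 0.9996 without WT replicate 2.

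Nmi measured 82.1 and 55.8 CPM in WT and 43.6, 47.0 and 53.5 CPM in dKO, and Ifi35 measured 80.6 and 64.1 CPM in WT and 47.9, 60.4 and 61.3 CPM in dKO. In both, WT replicate 1 stood highest and WT replicate 2 lay close to the dKO libraries. Their log2 fold changes were -0.52 and -0.36, with adjusted p of 0.586 and 0.727 by edgeR's test. Irf7, the factor that amplifies type I interferon production, ranged more widely within groups, with 28.4 and 11.3 CPM in WT and 18.7, 18.8 and 34.1 CPM in dKO. Irf9 lay between 81.8 and 152 CPM with WT replicate 2 lowest, and Stat2 between 9.91 and 39.5 CPM with dKO replicate 2 lowest.

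Ddx58 (RIG-I), Ifih1 (MDA5) and Dhx58 (LGP2) encode the cytosolic RNA helicases that sense viral RNA. Trim25 encodes a ubiquitin ligase that assists RIG-I, and Zbp1 a sensor of Z-form nucleic acid. Dhx58 measured 31.1 and 15.3 CPM in WT and 33.6, 49.4 and 39.1 CPM in dKO, a log2 fold change of 0.81 ± 0.42 (SE; adjusted p = 0.559 by edgeR's test). Trim25 measured 76.1 and 49.6 CPM in WT and 85.3, 119 and 74.7 CPM in dKO, so that dKO replicate 3 fell between the WT libraries. Ddx58 had 84.1 and 47.2 CPM in WT and 72.1 to 82.3 CPM in dKO, and Ifih1 96.1 and 52.5 CPM in WT and 65.2 to 134 CPM in dKO. For all 4 genes WT replicate 2 was the lowest library, and the dKO libraries of Ddx58 lay wholly between the WT libraries. Zbp1 was low, at 6.41 to 16.7 CPM, with its highest level in WT replicate 1.

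Isg15 is a ubiquitin-like protein that is joined to other proteins, and Usp18 is the protease that removes it and that also damps signalling at the type I receptor. Usp18 measured 56.3 and 14.7 CPM in WT, a 3.84-fold gap, and 27.1, 32.1 and 25.8 CPM in dKO. All dKO libraries lay between the WT libraries. Leaving out WT replicate 1 gave a log2 fold change of 0.94, and leaving out WT replicate 2 gave -1.0. Isg15 measured 15.2 and 6.37 CPM in WT and 4.31, 3.08 and 8.71 CPM in dKO, with a log2 fold change of -1.01 ± 0.79 (SE; adjusted p = 0.739 by edgeR's test). WT replicate 1 again stood highest, and dKO replicate 3 lay above WT replicate 2.

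The IFIT proteins bind foreign RNA ends and block translation. Ifit1 had the widest gap between the WT libraries of all members, 50.5 against 10.5 CPM or 4.81-fold, and measured 22.8, 9.85 and 31.2 CPM in dKO. Ifit2 had 44.6 and 44.9 CPM in WT, and 40.4, 28.8 and 62.0 CPM in dKO on either side of them. Its near-equal WT values set it apart from Ifit1, although both belong to 1 gene family. Ifit3 was counted 194 and 96 times in WT and 205, 0 and 71 times in dKO, so that a single library was empty while the others held 2.63 to 7.56 CPM. Ifit3 has a near-identical copy, Ifit3b, and its counts are uncertain for that reason.

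The oligoadenylate synthetases make the messenger that activates RNase L. Oas2 lay between 4.45 and 21.3 CPM. Oas3 measured 7.26 and 3.61 CPM in WT and 15.3, 0.242 and 5.22 CPM in dKO, with the highest and the lowest level both in dKO. Its log2 fold change of 0.35 was -0.98 without dKO replicate 1. The related Oasl1, at 31.7 and 8.89 CPM in WT and 9.19 to 18.5 CPM in dKO, and Oasl2, at 72.0 and 28.2 CPM in WT and 34.5 to 61.6 CPM in dKO, had all dKO libraries between the WT libraries. Eif2ak2, the RNA-activated kinase PKR, was near-equal in WT, at 19.3 and 17.4 CPM, and spread from 7.82 to 31.1 CPM in dKO. Adar, an RNA-editing deaminase, was highest in dKO replicate 1 at 70.7 CPM and lay between 24.4 and 40.0 CPM elsewhere. The exonuclease gene Isg20 lay between 31.9 and 69.6 CPM, with WT replicate 2 lowest.

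Ifitm3, which hinders the fusion of viruses with endosomes, was the most abundant member, at a mean of 980 TPM over the 5 libraries. The next by mean TPM were Ifi35 at 139, the tetherin gene Bst2 at 127, the GTPase gene Irgm1 at 120 and the nuclear body gene Sp100 at 102. The median member stood at 32.6 TPM, and 4 members were under 5 TPM. Ifitm3 had 535 and 331 CPM in WT and 387, 274 and 375 CPM in dKO, a log2 fold change of -0.33 ± 0.26 (SE; adjusted p = 0.741 by edgeR's test) that was 0.05 without WT replicate 1. Bst2 had 51.4 and 49.9 CPM in WT and 50.4, 72.6 and 52.2 CPM in dKO, so that only dKO replicate 2 stood away from the rest. Ifi27l1, the entry of the Ifi27 identifier, was also abundant, with 491 and 237 TPM in WT and 418, 293 and 352 TPM in dKO. For this entry, unlike Ifitm3 and Bst2, all dKO libraries lay between the WT libraries.

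Samd9l encodes a growth-restraining protein of blood cells that is known for inherited bone marrow failure when mutated. It had the smallest p of the members. It measured 99.0 and 38.2 CPM in WT and 147, 176 and 138 CPM in dKO, and the groups did not overlap. The log2 fold change was 1.16 ± 0.39 (SE; unadjusted p = 0.0185, adjusted p = 0.441 by edgeR's test), and it was 2.0 with WT replicate 1 left out and 0.63 with WT replicate 2 left out. Adjusted p over the alternatives ran from 0.0975 with DESeq2 to 0.9996 without WT replicate 2. In TPM the groups were also apart, at 32.3 and 11.0 in WT and 53.3, 63.0 and 44.3 in dKO.

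Xaf1, a gene tied to cell death, had a lower mean in dKO and measured 87.3 and 30.0 CPM in WT and 53.5, 5.80 and 19.7 CPM in dKO. The groups overlapped, since dKO replicate 1 exceeded WT replicate 2, and the log2 fold change of -1.15 was -0.18 without WT replicate 1. Rtp4 had 148 and 43.7 CPM in WT and 50.9 to 88.3 CPM in dKO, all between the WT libraries, and Ifi44 had 78.3 and 28.1 CPM in WT and 49.4 to 73.9 CPM in dKO, placed in the same way. Rsad2 (viperin) peaked in dKO replicate 2 at 21.6 CPM, against 4.77 to 12.6 CPM elsewhere. The dynamin-like antiviral GTPases were low in every library. The counts of Mx1 were 37 and 47 (WT) against 27, 2 and 83 (dKO), and those of Mx2 were 93 and 46 (WT) against 185, 0 and 127 (dKO).

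**Figure D4:**
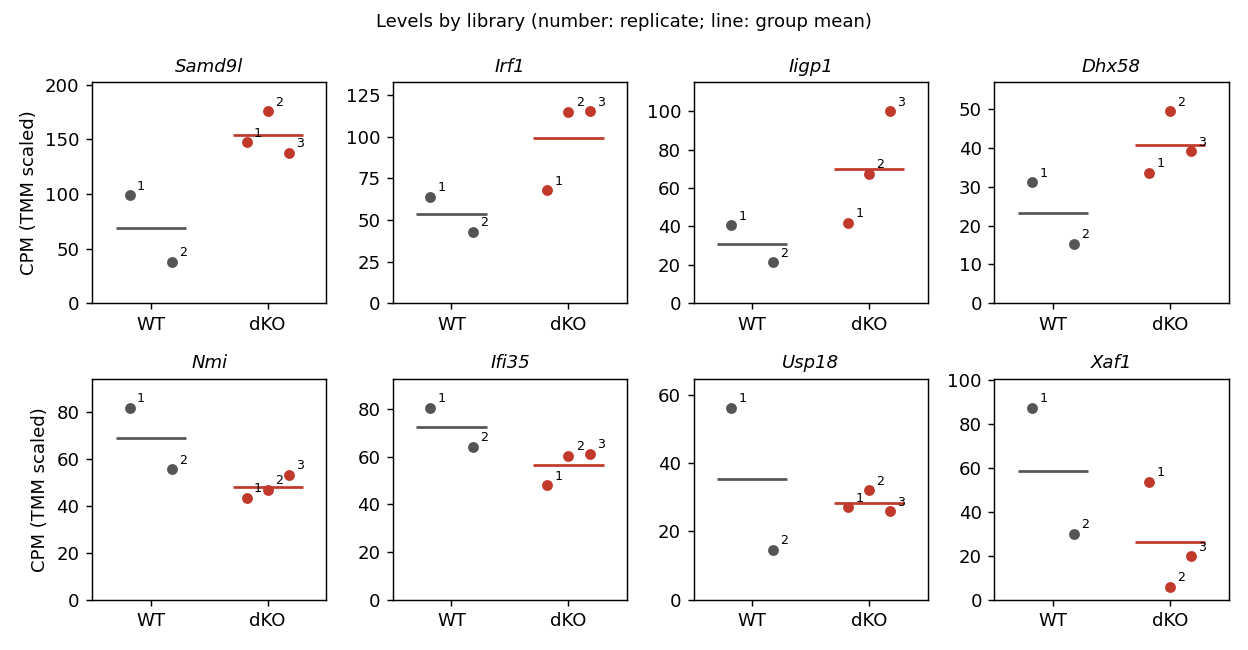
Level in TMM-scaled CPM (vertical axis, from 0) of 8 interferon-stimulated genes in the WT (grey) and dKO (red) libraries. Points carry the replicate number and lines show group means. The groups do not overlap for Samd9l, Irf1, Iigp1 and Dhx58 (dKO above) or for Nmi and Ifi35 (dKO below), all dKO points of Usp18 lie between the WT points, and dKO replicate 1 of Xaf1 lies above WT replicate 2.

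The interferon-inducible GTPases attack the vacuoles of intracellular pathogens and are induced mainly by interferon gamma. Irgm1 is also known for keeping stem cell division in check. Iigp1 measured 40.7 and 21.3 CPM in WT and 42.0, 67.4 and 100 CPM in dKO, a log2 fold change of 1.17 ± 0.46 (SE; unadjusted p = 0.0343, adjusted p = 0.467 by edgeR's test). The lowest dKO library was within 2 CPM of WT replicate 1. Leaving out WT replicate 2 gave 0.77 and leaving out WT replicate 1 gave 1.70, and adjusted p ran from 0.185 with DESeq2 to 0.9996 without WT replicate 2.

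The other 6 GTPase genes had log2 fold changes of -0.38 to 0.34. Irgm1 had 142 and 79.2 CPM in WT and 126, 149 and 111 CPM in dKO, and Gbp7 187 and 137 CPM in WT and 155, 187 and 240 CPM in dKO. Igtp and Irgm2, whose ISRE stretches are nearly the same in letters, had their highest levels in different libraries. Igtp was highest in dKO replicate 3, at 175 CPM against 92.6 to 139 CPM elsewhere, whereas Irgm2 had 40.1 CPM there against 43.9 CPM in WT replicate 1. Gbp2 lay between 105 and 167 CPM, and Gbp3 between 52.8 and 110 CPM with its lowest level in dKO replicate 2. Reads of these families of similar sequence can be split between members by counting.

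Parp9 and Dtx3l form a complex that modifies proteins at damaged DNA and at interferon targets, and Parp14 is a further ADP-ribosyltransferase. Parp14 measured 18.1 and 8.53 CPM in WT and 20.9, 27.1 and 25.0 CPM in dKO, a log2 fold change of 0.87 (adjusted p = 0.586 by edgeR's test). In TPM its groups overlapped, with 13.6 and 1.87 in WT and 11.0, 13.8 and 10.4 in dKO. Parp9 and Dtx3l lay between 33.0 and 72.3 CPM, both highest in dKO replicate 1.

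Cxcl10, a chemokine that attracts T cells, had the largest log2 fold change of the members, 2.13 with an interval of -0.63 to 4.89 (adjusted p = 0.587 by edgeR's test). Both WT libraries held 40 counts, and the dKO libraries 92, 247 and 62. dKO replicate 2 carried much of the difference. Without it the value was 0.87, and the other dKO libraries still lay above both WT libraries. Tap1, a peptide transporter for antigen display, had 178 and 120 CPM in WT and 159, 258 and 199 CPM in dKO. Sp100 was the steadiest member, at 116 and 118 CPM in WT and 143, 122 and 124 CPM in dKO.

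The values were also read by presence of the ISRE letters. The 18 with a match had 10 higher and 8 lower values in dKO and a median log2 fold change of 0.13, and the 17 without had 11 and 6 and a median of 0.14. WT replicate 1 lay above WT replicate 2 in 16 of 18 and in 15 of 17. WT replicate 2 held the lowest level of 7 of the 18 members with a match (38.9%) and of 12 of the 17 without (70.6%). The mean deviation of dKO replicate 2 from the gene means was -0.44 with a match and -0.04 without, on the log2 scale. The first mean includes Ifit3 and Oas3, which had 0 and 4 counts in that library. These differences were not tested. Among tested genes that are no members, 330 held an ISRE match, with a median log2 fold change of 0.05 against 0.03 for the 8827 without. There WT replicate 1 lay above in 55.5% of those with a match and 49.9% of those without. A match in these windows is a description of the letters only.

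The genes upstream of the response were checked from a list of receptors and signal transducers, of which 9 of 10 were found and tested. 8 were higher and 1 lower in dKO, with a median log2 fold change of 0.26. At an unadjusted p under 0.05 by edgeR's test there were 0, against 10.1% of all genes tested. Ifnar1 measured 102 and 63.9 CPM in WT and 111, 128 and 117 CPM in dKO, and all dKO libraries lay above both WT libraries. Ifngr1 stood at 452 CPM in WT replicate 2, against 203 CPM in WT replicate 1 and 232 to 253 CPM in dKO. It was thus high in the library where most members were low. Ifnar2 and Ifngr2 had log2 fold changes of 0.01 and 0.00. Jak1 and Tyk2 had 0.30 and 0.62. Jak2 had 27.7 and 7.65 CPM in WT and 27.6, 62.2 and 33.1 CPM in dKO.

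The interferon genes themselves had few or no counts. Of 21 ligand genes 17 stood in the tables, and 14 of these had 0 counts in all 5 libraries, Ifnb1 among them. Ifna1 had 1 count in dKO replicate 3 and Ifna13 4 counts in WT replicate 2. Ifng had 36 counts in dKO replicate 3 and 0 in every other library. That library also held 45 counts of the natural killer cell receptor Ncr1, with 0 elsewhere, and 205 counts of the plasmacytoid dendritic cell gene Siglech, against 0 to 15 elsewhere. Ncr1 and Siglech were singled out with their values known. Of the other genes in their marker lists, Tcf4 and Il7r were also highest in dKO replicate 3. Klrb1c, Cd3g, Cd4 and Cd8a were highest in dKO replicate 2, and Nkg7, Gzma and Cox6a2 in WT replicate 2. Cd3d was highest in WT replicate 1 and Spib in dKO replicate 1. Of the 45 members 9 (20%) had their highest level in dKO replicate 3, against 21.0% of all genes tested. Among the 7 GTPase genes these were Iigp1, Igtp, Gbp2 and Gbp7, while Irgm1, Irgm2 and Gbp3 were highest in other libraries. Their part in those levels was not tested.

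Of 15 negative regulators 8 were higher and 7 lower. At an unadjusted p under 0.05 by edgeR's test, 1 was higher, against 4.94% of all genes tested. This was Setdb1, a histone methyltransferase that silences transposons, with 20.6 and 14.2 CPM in WT and 46.2, 57.3 and 36.6 CPM in dKO (log2 fold change 1.42, adjusted p = 0.430 by edgeR's test). Ptpn2 and Socs3 had log2 fold changes of -0.56 and 0.81. Of 16 tested genes of nucleic acid sensing 9 were higher and 7 lower. At the same threshold 1 was lower, against 5.19% of all genes tested. This was Rnaseh2a, a subunit of RNase H2, with 159 and 163 CPM in WT and 112, 91.2 and 95.6 CPM in dKO (log2 fold change -0.69, adjusted p = 0.434 by edgeR's test). Irf5 and Rnaseh2c had 1.18 and -0.56.

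A second list held further interferon-inducible genes that are no members. Of 61 tested, 33 were higher and 28 lower in dKO, with a median log2 fold change of 0.08. At an unadjusted p under 0.05 by edgeR's test, 5 were higher and 4 lower, against 4.94% and 5.19% of all genes tested. After adjustment 0 were called. The smallest p-values were those of the class I antigen genes H2-T23 and H2-K1 and of the nucleotide kinase gene Cmpk2. H2-T23 measured 259 and 170 CPM in WT and 432, 401 and 412 CPM in dKO (log2 fold change 0.95, adjusted p = 0.430 by edgeR's test), H2-K1 1772 and 1445 CPM in WT and 2295, 2975 and 2527 CPM in dKO (0.69), and Cmpk2 19.4 and 8.13 CPM in WT and 35.3, 33.8 and 51.0 CPM in dKO (1.54). Ifitm1, singled out with its value known, had a lower value in dKO (-0.84). It measured 2734 and 1448 CPM in WT and 1092, 919 and 1501 CPM in dKO, so the groups overlapped. Psme2, Ifi47 and Pnpt1 were also lower at an unadjusted p under 0.05 by edgeR's test (-0.55, -0.57 and -0.84). In these every dKO library lay below both WT libraries. Of the 61 genes, 9 had all dKO libraries above both WT libraries and 8 had all below. The shares over all genes tested were 13.7% and 15.6%. WT replicate 2 held the lowest level of 27 of the 61 genes, against 22.4% of all genes tested. Ly6a, the gene of the sort marker ScaI, had 176 and 90.8 CPM in WT and 143, 98.4 and 150 CPM in dKO. Its log2 fold change was -0.03.

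Markers of other cells that carry interferon-stimulated transcripts were read beside these values. Of the 6 plasmacytoid dendritic cell genes, Ccr9 and Klk1 had 0 counts in every library, and the summed level of the list, nearly all of it Tcf4, was 112 and 88.2 CPM in WT and 124 to 186 CPM in dKO. Monocyte and macrophage genes summed to 869 and 1291 CPM in WT and 1246 to 1580 CPM in dKO, most of it Lyz2 and Ly6c2. Ly6c2 had 126 and 670 CPM in WT and 398 to 499 CPM in dKO. It was highest in WT replicate 2, as were the granulocyte progenitor genes. Of the 10 tested genes of the list 9 had a higher value in dKO, against 7147 of all 13696 genes tested. B cell genes summed to 1011 and 194 CPM in WT and 1828 to 2589 CPM in dKO, most of it Ighm except in WT replicate 2, where Ighm had 96.0 and Cd79b 90.7 CPM. Of 6 tested B cell genes 5 had a higher value in dKO. Cd79a, Ebf1, Blnk and Ighm had log2 fold changes of 2.09, 3.99, 2.95 and 2.09. All were higher at an unadjusted p under 0.05 by edgeR's test, against 4.94% of all genes tested. In each, all dKO libraries lay above both WT libraries, against 13.7% of all genes tested. Pax5 had 0 to 9 counts, and Ms4a1 had 1 count in all. T and NK cell genes summed to 715 and 1888 CPM in WT and 575 to 714 CPM in dKO, nearly all of it Nkg7, which had a log2 fold change of -1.02. The other 4 tested genes of that list had a higher value in dKO. Cd3e had 0 counts in every library, whereas Cd3g had 178 and Cd4 145 counts in dKO replicate 2, against 0 to 21 and 19 to 106 elsewhere. The part of such cells in the members' levels was not tested.

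**Figure D5:**
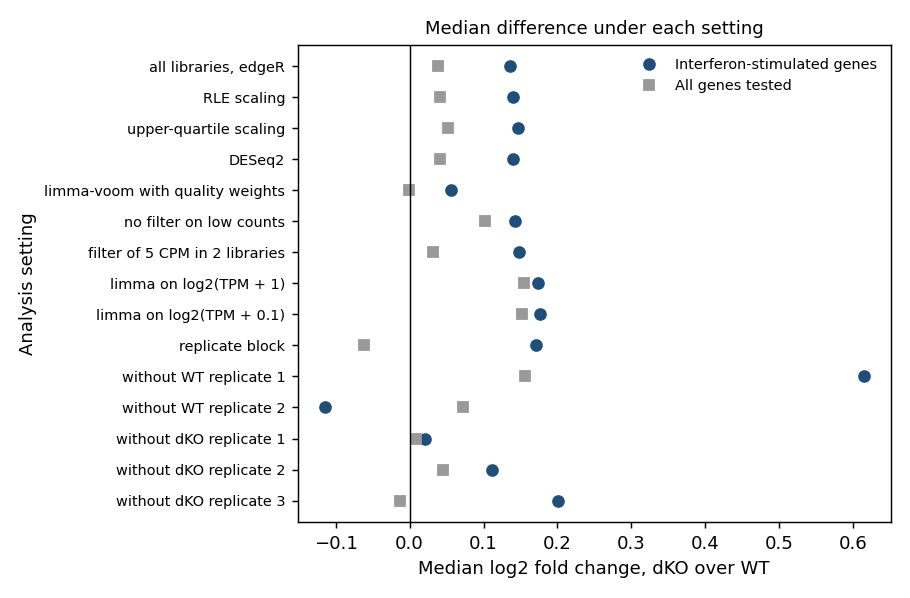
Median log2 fold change (dKO over WT, horizontal axis) of the interferon-stimulated genes (blue circles) and of all genes tested (grey squares) under each analysis setting (vertical axis). The member median is 0.14 with all libraries, 0.61 without WT replicate 1 and -0.11 without WT replicate 2.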

How the data were processed

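Per the labels' protocols, libraries were made by Smart-seq2 from sorted cells. The authors deposited a table of raw counts per gene and a table of TPM for each of the 5 libraries. Their tools, per the submitters' processing notes, were FastQC (version 0.11.5), Trimmomatic, TopHat2 (version 2.1.1), RSEM (version 1.2.31), HTSeq and DESeq2, on the build mm9. The sources used here do not say which tool made which values. A further 30 rows without a gene name, which held 0.216% to 0.269% of the counts, were left out.

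The dKO and WT counts were compared in edgeR 4.0.16 (R 4.3.3) with TMM scaling, filterByExpr and the robust quasi-likelihood fit. This tested 13696 genes (common dispersion 0.461), adjusted by Benjamini-Hochberg over all genes at a threshold of 0.05. The fits were also run on counts simulated with edgeR's own fitted dispersions. That checks the code and cannot show that the model suits these libraries. The members and lists were chosen with earlier results of these data known. Every member could be named. The rule asked for values in every library for members with an unadjusted p under 0.05, the next 4 per direction, the 5 with the highest mean TPM and the 3 with the widest range. Further members were added by library or range to complete each role. From each other list up to 3 genes with the smallest p were named, plus the receptors and kinases. Some genes of these lists are not reported here. Libraries of a group differed far beyond sampling noise (chi-square per degree of freedom 105 to 170), which does not show that they came from separate mice. All were used as separate samples. Results were recomputed with DESeq2 1.42.0, with limma-voom (limma 3.58.1, quality weights), with RLE or upper-quartile scaling, with other filters on low counts, from log2 TPM in limma (pseudocounts 1 and 0.1), with replicate numbers as blocks, and with single libraries left out.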

Additional observations from a re-analysis of the deposited data

How the results depend on the processing

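In every alternative that kept both WT libraries, 0 members were called. The median log2 fold change of the members ran from -0.11 to 0.61 over the libraries left out in turn. It moved by more than the pooled within-group SD of the members' median deviation (0.32) only without WT replicate 1. The gap between the WT libraries is itself part of that SD. Without WT replicate 2 the median changed sign, to -0.11. The cause was not tested. Over all genes, edgeR called 0 higher and 0 lower. DESeq2 called 162 and 92, edgeR without a filter on low counts 5 and 3, and limma on log2 TPM 3 and 2 with a pseudocount of 1 and 2 and 0 with 0.1. Leaving out 1 library gave 0 to 2 higher and 0 to 3 lower. With the replicate block 1 gene was called higher and 0 members. Replicate numbers are shared by 2 pairs only, whose deviations from the group means correlated at 0.033 and 0.046 across genes, and the labels do not say that a number marks a pair, so the libraries share a number only.

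Among the members given in full, the log2 fold change of Oas3 (0.35) was -0.065 and -0.54 by limma on TPM with a pseudocount of 1 and 0.1. It was -1.24 with the replicate block and -0.98 to 0.95 over the libraries left out. Mx2 (0.52) was -0.61 on TPM with 0.1, -2.13 with the replicate block and -0.19 to 1.11 over the libraries left out. Ifitm3 ranged from -0.63 to 0.054 and Irgm1 from -0.14 to 0.70 over the libraries left out. Lrp5 (0.83) was -0.40 with the replicate block and -0.045 to 2.34 over the libraries left out, and Lrp6 (0.51) -0.042 to 1.39. With 2 and 3 libraries that spread widely within groups, the lack of a call does not exclude a difference, small or large. Cxcl10 at 2.13 and Samd9l at 1.16, the latter with 954 to 4000 counts per library, were not called. For members such as Ifit3, with 0 to 205 counts, depth was a further limit.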
